A study of Mus musculus with 24 samples.

Results

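The MHC class II presentation genes described here are H2-Aa, H2-Ab1, H2-Eb1, H2-DMa, H2-DMb1, Cd74, Ciita and Ctss. The list was set by gene symbol, with no threshold on measured values but with earlier results of these data known, and makes up 8 of the 41549 genes of the mouse islet RNA-seq table. Wild type mouse pancreatic islet cells were dispersed, transfected with a locked nucleic acid antisense oligonucleotide (ASO) and then exposed to palmitate (PA) bound to bovine serum albumin (BSA) or to BSA alone. The 24 libraries fall into 4 groups of 6, which are the control ASO with BSA (Ctr BSA), the control ASO with PA (Ctr PA), an ASO against the tRNA fragment 5′tRF-Glu(CTC) with BSA (αGlu BSA), and the same ASO with PA (αGlu PA). Every group holds 3 libraries of batch 1 and 3 of batch 2, and what the batches stand for is not stated in the labels. The study's methods give 50 pmol of ASO, 0.5 mM PA and 0.75% BSA, and a 48 h exposure for dispersed islet cells in this ASO design. Primary cells came from C57BL/6NRj mice of both sexes, between 12 and 14 weeks old, although the methods do not tie these mice to the sequenced libraries. All groups carry an ASO, so no untransfected cells are compared, and the dispersed cells were a mixture of islet cell types that had not been sorted.

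Class II molecules are heterodimers of an α and a β chain that present peptides from endosomes to CD4+ T cells. The invariant chain, encoded by Cd74, escorts newly made dimers to the endosome, where cathepsin S, encoded by Ctss, trims it to a short peptide that the DM heterodimer then exchanges for antigenic peptides. Transcription of the genes of the class II, DM and invariant chains is driven by the coactivator encoded by Ciita. It binds RFX, CREB and NF-Y factors on a shared promoter module. Professional antigen-presenting cells such as macrophages, dendritic cells and B cells are the main sites of expression. In the islet, resident macrophages are the class II-bearing cells best known, and they are a small part of a preparation made up mostly of endocrine cells. Mice of the C57BL/6 background carry a defective H2-Ea gene and make H2-Eb1 transcripts without a partner chain.

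The promoter module shared by class II genes could be read in the RefSeq promoters (build GRCm38.p6) of H2-Aa and H2-Eb1. They are shown because they carry the X box letters GNAAC and the Y box letters ATTGG at the spacing of that module. Next to them are promoters at starts listed for Ctss and H2-DMa, which do not carry the pair at that spacing. Each line gives the 70 bases from 100 to 31 bases before the annotated start, 5′ to 3′ on the strand of the gene, with GNAAC and ATTGG in capitals where the latter starts 32 or 33 bases after the former.
H2-Aa, chr17:34287854-34287923, minus strand: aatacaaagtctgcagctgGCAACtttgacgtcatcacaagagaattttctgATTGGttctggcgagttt
H2-Eb1, chr17:34305767-34305836, plus strand: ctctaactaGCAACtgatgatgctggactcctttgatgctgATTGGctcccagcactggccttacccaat
H2-DMa, first of 2 annotated starts, chr17:34122732-34122801, plus strand: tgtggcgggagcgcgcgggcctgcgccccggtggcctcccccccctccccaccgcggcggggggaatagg
Ctss, chr3:95526686-95526755, plus strand: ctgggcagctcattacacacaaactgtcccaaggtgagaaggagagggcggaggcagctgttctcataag
The H2-DMb1 promoter also held the pair, with GNAAC 94 and ATTGG 61 bases before the start. Neither of the 2 H2-DMa starts listed had the pair. Starts elsewhere in the span of H2-DMa were not searched, so the module cannot be called absent from that gene. The pair, searched on both strands, occurs in 0.39% of all 32851 promoters of 300 bases, and ATTGG alone in 37.4% of them. These letters and their spacing were chosen after the promoters had been read. A match is a description of the sequence only. RefSeq promoters were matched for 5 of the 8 genes.

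The ASO that defines the αGlu groups is shown with its target as the study's list of oligonucleotides gives them, with the part of the target that the ASO pairs with, 20 of 21 bases, in capitals.
αGlu ASO: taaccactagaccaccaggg
Target: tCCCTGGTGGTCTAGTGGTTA

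In GRCm38 and GENCODE vM21 annotation, the classical chains and both DM chains lie together on chromosome 17. H2-Ab1 spans chr17:34257689-34269419 on the plus strand, H2-Aa spans chr17:34282744-34287823 on the minus strand, and H2-Eb1 spans chr17:34305867-34316674 on the plus strand. H2-DMa at chr17:34119541-34139101 and H2-DMb1 at chr17:34153072-34160230 are both on the plus strand. Cd74 is at chr18:60803848-60812652, Ciita at chr16:10480059-10528418 and Ctss at chr3:95526786-95556403, all on the plus strand. Counts per gene refer to the union of a gene's exons. H2-DMa shares 360 of its 3448 exonic bases with the bromodomain gene Brd2 on the opposite strand, and Ciita shares 329 of 9535 with Dexi, also on the opposite strand. The library kit keeps the strand, but the strand setting of the counting is not given in the sources used here, so the part of Brd2 reads in H2-DMa was not tested.

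Total counts ran from 18214719 to 35001979 per library. A gene with a count of 0 in a library may still have been present at up to 0.0825 to 0.193 CPM (counts scaled to the library total), the level of 3 counts at these depths, and this limit covers counting error only. Ins2 averaged 63957 ± 11872 CPM in Ctr BSA (SD, n = 6), the level of a β-cell-rich preparation. Library S21 of Ctr BSA stood apart from its group in macrophage genes. It was the highest Ctr BSA library for 93.8% of the 16 tested genes of a macrophage list against 20.4% of all tested genes, with a median ratio to the other 5 Ctr BSA libraries of 4.46 against 1.00. In library S12 of αGlu PA, 8 of the 18 macrophage genes had no count. Results that rest on these libraries are given with and without them.

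The class II genes were expressed at low levels in islet cells. Per length of exon, on the deposited RPKM scale (reads scaled by exon length and by mapped reads), the Ctr BSA medians ran in the order Ctss (3.28), H2-DMa (2.63), Cd74 (1.08), H2-DMb1 (0.232), H2-Ab1 (0.128), H2-Eb1 (0.113), H2-Aa (0.0712) and Ciita (0.0114). The ranges of Ctss, H2-DMa and Cd74 overlapped one another. Every Ctr BSA library had a higher RPKM for Cd74, at 0.695 or more, than for H2-DMb1, at 0.303 or less. H2-DMb1, H2-Ab1, H2-Eb1 and H2-Aa overlapped in range. By these medians the classical chains ranked below the invariant chain and below the α chain of DM. The part of Brd2 reads in the H2-DMa level was not tested.

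The gene-wise test used 15916 genes that passed a filter on low counts. H2-Aa, H2-DMa, H2-DMb1, Cd74 and Ctss passed it, 5 of the 8 genes. H2-Ab1, H2-Eb1 and Ciita did not, with 224, 271 and 81 counts in all 24 libraries, and their values come from a fit of all 25343 genes with a count. Following the study, a gene was called when it differed by more than 2-fold and its p before adjustment was below 0.05, and the Benjamini-Hochberg adjusted p over all genes is printed beside the values. The adjusted p-values are from edgeR's two-sided quasi-likelihood test with batch as a term, and those within a batch come from a fit of that batch alone. They measure the spread between libraries, which the study's legend describes as 6 independent experiments per group. The study also states that all groups of a replicate came from the same animal or passage, but the labels do not say which libraries belong together, so every fit here is unpaired and does not use that matching.

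Under the control ASO, most of the class II genes tested were called lower with PA over all 24 libraries. In the unpaired fit the sizes of several of these differences rested on S21. Without S21, H2-DMb1 and Ctss remained called, 2 of the 5, against 4.68% of all tested genes. Of the 5 genes tested, H2-Aa, H2-DMb1, Cd74 and Ctss were called lower, whereas 5.06% of all tested genes were called lower. All 5, with H2-DMa, had an adjusted p below 0.05 and a negative fold change, against 14.5% of all tested genes. H2-DMb1 reached 10 counts in 7 libraries, all of them BSA libraries, and had at most 6 counts in any PA library, so it was tested through the groups where it was high. The count of 4 is therefore a description and not support for a change of the list. A bulk measurement cannot tell fewer class II-expressing cells from less RNA per cell.

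H2-Aa, the α chain of I-A, lay between 0.276 and 9.23 CPM in Ctr BSA with a median of 0.326. In Ctr PA it lay between 0.0797 and 0.501 with a median of 0.186. The highest Ctr BSA value was that of S21, which held 261 of the 305 H2-Aa counts of its group, and 5 of the 6 Ctr PA libraries were below every Ctr BSA library. The fitted log2 change with PA was −2.86 ± 0.90 (SE, adjusted p = 0.019). Without S21 it was −0.70 ± 0.69 (adjusted p = 0.483) and the call was lost. Within batch 1 the value was −1.22 ± 0.73 (adjusted p = 0.314) and within batch 2, which holds S21, it was −3.67 ± 1.25 (adjusted p = 0.0759). The exact permutation test of log2 CPM gave p = 0.0433, and 0.0844 without S21.

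H2-Ab1, the β chain of I-A, was the one gene of the 8 whose control groups did not overlap. It was singled out for this after the values were seen. It ranged from 0.192 to 3.71 CPM in Ctr BSA with a median of 0.395, and from 0.0365 to 0.143 CPM in Ctr PA with a median of 0.0751. All 6 Ctr PA libraries were below all 6 Ctr BSA libraries. This pattern, with PA lower, was seen in 2.86% of the tested genes, a set that H2-Ab1 was not part of. The counts were small, between 1 and 4 in the Ctr PA libraries. The exact two-sided permutation test of log2 CPM gave an unadjusted p = 0.00216 with and without S21, the smallest value either design can give. This p takes no account of the choice among 8 genes. The fit with no filter called 6 of the 8 genes lower, against 5.49% of its 25343 genes. In it H2-Ab1 had a log2 fold change of −3.36 ± 0.79 (adjusted p = 0.00217), and −2.25 ± 0.79 (adjusted p = 0.0449) when S21 was left out. Batch 2 alone, where the gene passed the filter, gave −4.04 ± 1.26 (adjusted p = 0.0558). It passed there through BSA libraries, since no PA library held more than 9 counts.

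H2-Eb1, the β chain of I-E, was carried mainly by S21, with 164 of 194 Ctr BSA counts. Its range in Ctr BSA was 0.0826 to 5.80 CPM (median 0.257) and in Ctr PA 0 to 0.199 CPM (median 0.0762). Its log2 fold change of −3.43 ± 0.88 (adjusted p = 0.00496, no filter) became −1.58 ± 0.81 (adjusted p = 0.212) without S21. Leaving out S21 with no filter left H2-Ab1, H2-DMb1 and Ctss called lower, 3 of the 8 genes against 4.85% of all genes in that fit.

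H2-DMb1, the β chain of the peptide exchanger DM, was lower in Ctr PA with and without S21. It was tested through the BSA libraries, where it was high, so its calls and p-values are a description. Its Ctr BSA values ran from 0.158 to 0.601 CPM with a median of 0.468, and its Ctr PA values from 0 to 0.159 CPM with a median of 0.0359. Of the 6 Ctr PA libraries, 5 were below every Ctr BSA library, and 2 had no count. Its log2 change with PA was −3.00 ± 0.77 (adjusted p = 0.00458) and −2.85 ± 0.82 (adjusted p = 0.0111) without S21. It was −3.32 ± 1.10 within batch 1 (adjusted p = 0.0692) and −2.77 ± 1.12 within batch 2 (adjusted p = 0.128), past the call threshold in both. The group sums behind it were 66 counts in Ctr BSA and 8 in Ctr PA.

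H2-DMa, the α chain of DM, behaved differently from its partner. It was present at 10.1 to 14.6 CPM in Ctr BSA (median 12.04) and at 8.13 to 11.2 CPM in Ctr PA (median 9.69), with ranges that overlapped. The difference was −0.32 ± 0.10 on the log2 scale (adjusted p = 0.0212), below the fold threshold, and S21 was the lowest Ctr BSA library for this gene at 10.1 CPM. Brd2, which shares exonic bases with H2-DMa, averaged 443 ± 87.9 CPM in Ctr BSA and 298 ± 54.9 CPM in Ctr PA (SD, n = 6 each).

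Cd74, the invariant chain, ranged from 1.45 to 12.8 CPM in Ctr BSA with a median of 2.62. In Ctr PA its range was 1.06 to 1.88 CPM with a median of 1.47. S21 was the only library above 3.22 CPM in Ctr BSA, and 3 of the 6 Ctr PA libraries were below every Ctr BSA library. A log2 fold change of −1.43 ± 0.38 (adjusted p = 0.0058) became −0.68 ± 0.23 without S21, which was no longer past the fold threshold but kept an adjusted p of 0.0321. Within batch 1 it was −0.66 ± 0.35 (adjusted p = 0.248) and within batch 2 −1.95 ± 0.53 (adjusted p = 0.0324). The exact permutation test without S21, 5 libraries against 6, gave p = 0.0238.

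Ctss, the protease that trims the invariant chain, ranged from 3.30 to 26.8 CPM in Ctr BSA with a median of 6.59, and from 0.609 to 4.05 CPM in Ctr PA with a median of 1.49. Of the 6 Ctr PA libraries, 5 were below every Ctr BSA library, and the exception was S19 with 4.05 CPM. Its fitted log2 change was −2.29 ± 0.62 (adjusted p = 0.00692), and −1.78 ± 0.61 (adjusted p = 0.031) without S21. Batch 1 alone gave −1.79 ± 0.87 (adjusted p = 0.203) and batch 2 alone −2.74 ± 0.62 (adjusted p = 0.0137). With S21 left out and the filter kept, H2-DMb1 and Ctss were the 2 genes called lower among the 5, against 4.68% of all tested genes. H2-DMb1 was again tested through BSA libraries.

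Ciita, the class II coactivator, was near the limit of detection in every group. Its Ctr BSA range was 0.0395 to 0.413 CPM and its Ctr PA range 0 to 0.319 CPM, with 28 and 20 counts over 6 libraries each. The log2 fold change was −0.53 ± 0.85 (adjusted p = 0.743, no filter), so a difference was not detectable at this depth.

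**Figure D1:**
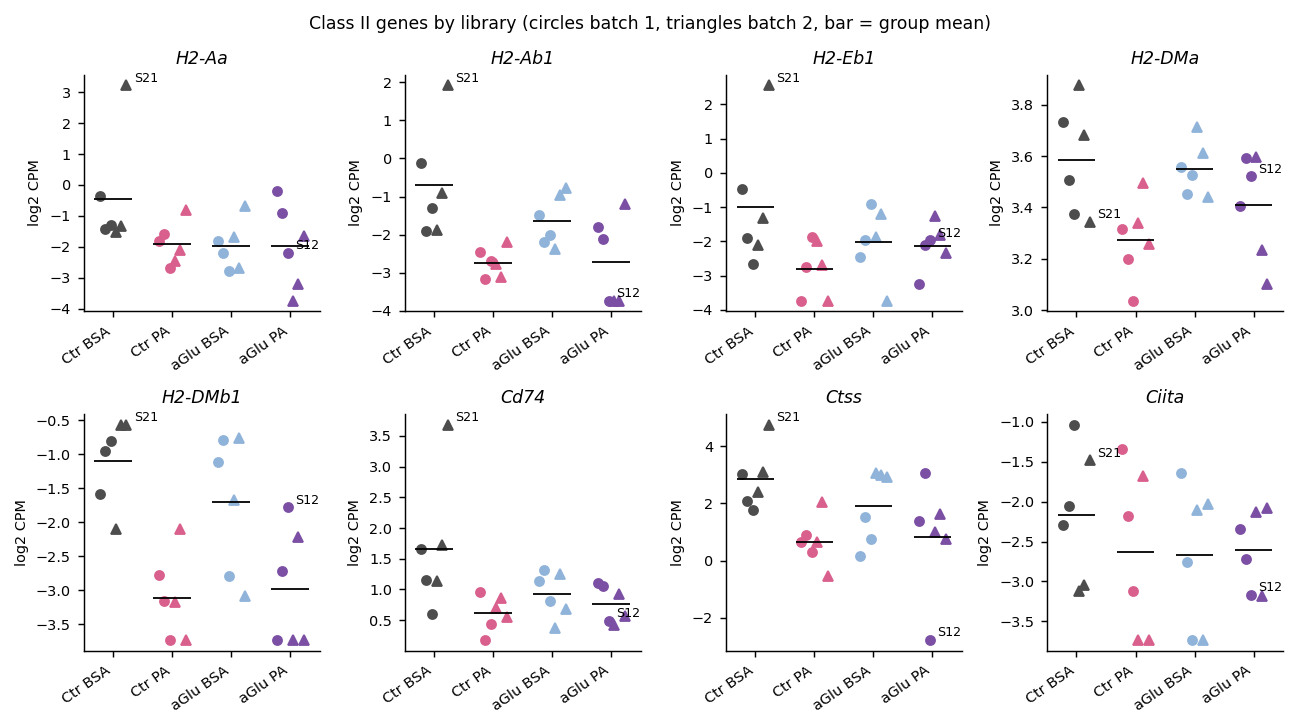
Level of each class II gene in each library, as log2 CPM with a prior count of 2, by group (circles batch 1, triangles batch 2, bars group means, scales differ between panels). S21 is the highest Ctr BSA library for all genes but H2-DMa and Ciita, all 6 Ctr PA libraries of H2-Ab1 are below all 6 Ctr BSA libraries, and S12 is the lowest library for Ctss.

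Under the αGlu ASO, H2-DMb1 was the gene called lower with PA among the 5 tested, against 4.74% of all tested genes. The same gene had an adjusted p below 0.05, against 14.2% of all genes. H2-DMb1 was tested through BSA libraries, the only ones where it reached 10 counts, so this call is a description. H2-DMb1 ranged from 0.0426 to 0.516 CPM in αGlu BSA (median 0.312) and from 0 to 0.215 CPM in αGlu PA (median 0.0386). In αGlu PA, 3 of 6 libraries had no H2-DMb1 count, and the ranges overlapped. The log2 fold change was −1.96 ± 0.74 (adjusted p = 0.0497), with −1.72 ± 0.97 (adjusted p = 0.294) in batch 1 and −2.32 ± 1.21 (adjusted p = 0.249) in batch 2, past the threshold in neither.

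Ctss was spread over both αGlu groups. It ran from 1.06 to 8.32 CPM in αGlu BSA with a median of 5.13, and from 0.0717 in S12 to 8.22 in S8 in αGlu PA with a median of 2.23. The log2 fold change was −0.42 ± 0.62 (adjusted p = 0.659) over both batches. It was 0.96 ± 0.85 (adjusted p = 0.53) within batch 1 and −1.83 ± 0.61 (adjusted p = 0.0718) within batch 2, where the gene was called lower, so the pooled value stood between batches that differed in sign. S12 and S8 are both libraries of batch 1. Without S8 the gene was called lower, at −1.29, and without S12 its log2 fold change was −0.20.

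Cd74 lay between 1.22 and 2.42 CPM in αGlu BSA (median 1.89) and between 1.26 and 2.08 CPM in αGlu PA (median 1.62). These ranges almost coincided, and the log2 difference was −0.19 ± 0.38 (adjusted p = 0.756). H2-DMa differed by −0.13 ± 0.10 (adjusted p = 0.364). H2-Aa had a median of 0.178 CPM in αGlu BSA and 0.193 CPM in αGlu PA, and a log2 fold change of 0.64 ± 0.97 (adjusted p = 0.672) that was 1.69 ± 0.73 (adjusted p = 0.168) in batch 1, where the gene was called higher, and −1.63 ± 1.61 (adjusted p = 0.572) in batch 2. In the fit with no filter, the log2 differences were −1.08 ± 0.76 for H2-Ab1 (adjusted p = 0.397), −0.48 ± 0.84 for H2-Eb1 (adjusted p = 0.789) and −0.12 ± 0.89 for Ciita (adjusted p = 1), none of them called.

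Between ASOs without PA, H2-Aa and Cd74 were called lower with αGlu, 2 of the 5 genes tested against 0.641% of all tested genes. This comparison shares the Ctr BSA libraries with that of PA under the control ASO. H2-Aa ran from 0.0697 to 0.553 CPM in αGlu BSA (median 0.178) and Cd74 from 1.22 to 2.42 CPM (median 1.89), and both ranges overlapped those of Ctr BSA. The log2 differences were −2.94 ± 0.91 for H2-Aa (adjusted p = 0.767) and −1.07 ± 0.37 for Cd74 (adjusted p = 1), and none of the 15916 tested genes had an adjusted p below 0.05. With no filter, 4 of the 8 genes were called lower, H2-Ab1 and H2-Eb1 being added, against 1.6% of all genes. None of the 8 was called once S21 was left out, and the Cd74 call was also lost without S14 or without S22. For H2-Ab1 the log2 difference moved from −1.66 ± 0.69 to −0.53 ± 0.73, and for H2-Eb1 from −2.06 ± 0.81 to −0.31 ± 0.77. Within batch 1, where S21 is absent, Cd74 differed by −0.09 ± 0.34 (adjusted p = 0.998) and H2-Aa by −1.57 ± 0.75 (adjusted p = 0.998), and within batch 2 by −1.85 ± 0.53 and −3.51 ± 1.24 (adjusted p = 1 for both). Ctss had a log2 difference of −1.01 ± 0.58 and H2-DMb1 one of −0.54 ± 0.62, neither of them called.

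Between ASOs under PA, none of the 5 tested genes was called lower, against 0.773% of all tested genes, and none was called higher, against 0.17%. The log2 differences, αGlu PA minus Ctr PA, were 0.17 ± 0.38 for Cd74, 0.14 ± 0.10 for H2-DMa, 0.50 ± 0.92 for H2-DMb1, 0.56 ± 0.96 for H2-Aa and 0.86 ± 0.63 for Ctss (adjusted p = 0.993 for each). Leaving out S8 turned the Ctss value to −0.08, leaving out S4 turned the H2-Aa value to −0.26, and leaving out S12 turned the H2-DMb1 value to −0.18. H2-Ab1 had no count in 3 of the 6 αGlu PA libraries, S12 among them, and a range of 0 to 0.363 CPM there.

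The difference between the PA responses, the PA effect under αGlu minus that under Ctr, was tested as an interaction. H2-Aa, Cd74 and Ctss, 3 of the 5 tested genes, were called higher in it, against 0.427% of all tested genes, but no gene passed after adjustment. The interaction was 3.50 ± 1.30 for H2-Aa, 1.24 ± 0.53 for Cd74 and 1.87 ± 0.86 for Ctss (adjusted p = 0.999 for each). Without S21 the values were 1.02 ± 0.98, 0.50 ± 0.32 and 1.26 ± 0.85 (adjusted p = 0.985 for each), and none of the 3 was called. With no filter 5 of the 8 genes were called, H2-Ab1 and H2-Eb1 being added, against 1.58% of all genes, and 0 of 8 without S21. The call of H2-Aa was also lost without S4, that of Cd74 without S4, S8 or S14, and that of Ctss without any of 8 other libraries. Within batches the interaction of Ctss was 2.75 ± 1.22 in batch 1 and 0.90 ± 0.86 in batch 2, that of Cd74 was 0.45 ± 0.49 and 1.79 ± 0.76, and that of H2-Aa was 2.91 ± 1.04 and 2.03 ± 2.20. Each was called in 1 batch only, Ctss and H2-Aa in batch 1 and Cd74 in batch 2 (adjusted p = 1 for all).

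**Figure D2:**
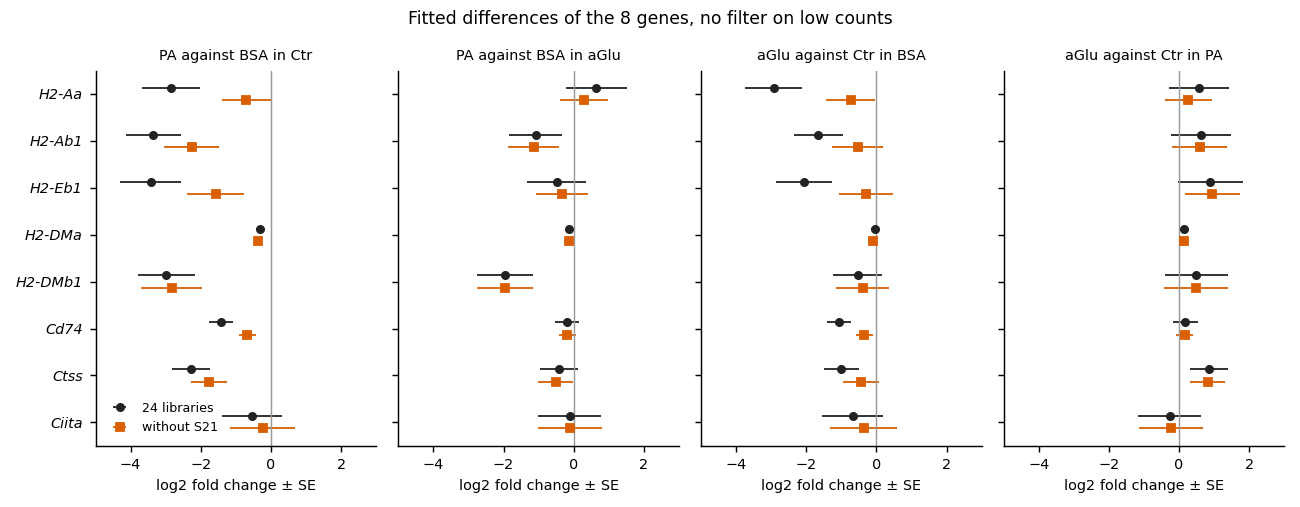
Fitted log2 fold changes with their standard errors for the 8 genes in 4 comparisons, from the fit with no filter on low counts, over 24 libraries (black circles) and without S21 (orange squares). H2-Aa under PA with the control ASO moves from −2.85 to −0.70 and H2-DMb1 from −2.98 to −2.83, while the values of both comparisons without Ctr BSA libraries stay within 1 SE of each other.

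Averaged over both ASOs, PA left Ctss (−1.36 log2) and H2-DMb1 (−2.48 log2) called lower among the 5 genes, against 5.05% of all tested genes. The H2-DMb1 call is again a description, since the gene was tested through BSA libraries. Averaged over both treatments, αGlu against Ctr gave no call among them, against 0.597% of all tested genes called lower. Between the batches none of the 5 genes had an adjusted p below 0.05, whereas 51.5% of all tested genes did, and the lowest adjusted p was that of Ctss, at 0.108 with a log2 difference of 0.86 ± 0.44. Of the macrophage list described next, 8 of 16 tested genes were called higher in batch 2, against 168 of all 15916 tested genes. Another 1 of the 16 was called lower, against 847 of all tested genes.

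Most macrophage markers tested were lower with PA under the control ASO, as were several class II genes. Of the 18 genes of the macrophage list, 16 were tested, with a median log2 fold change of −2.17 with PA under the control ASO. Against 5.06% of all tested genes, 12 of the 16 were called lower. They were the receptor genes Csf1r (−2.20 ± 0.31, adjusted p = 8.05e-06), Adgre1, Mrc1, Itgam and Itgax, the pan-leukocyte gene Ptprc, the complement genes C1qb and C1qc, the lysozyme gene Lyz2 (−3.46 ± 0.73, adjusted p = 0.000849), and Tyrobp, Laptm5 and Mpeg1. Itgam and Mrc1 passed the filter through BSA libraries, with 383 and 198 counts in Ctr BSA and 33 and 40 in Ctr PA. The calls in this list are therefore a description and not support for a change of the list. Without S21, 10 of the 16 were called lower and the median was −1.47, and the counts were 4 of 16 within batch 1 and 14 of 17 within batch 2. Under the αGlu ASO, Csf1r was the one gene called of the 16 (−1.54 ± 0.30, adjusted p = 0.000395), and the median was −0.31. Without S12 it was 1 of 17, with a median of −0.17. The batches differed in sign there, with 1 of 16 called lower and a median of 0.58 within batch 1, and 7 of 17 called lower and a median of −1.35 within batch 2.

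Between ASOs without PA, 3 of the 16 macrophage genes were called lower, Ptprc, Adgre1 and Lyz2, against 0.641% of all tested genes, and none without S21. Under PA, C1qb and C1qc, 2 of the 16, were called higher with αGlu, against 0.17% of all tested genes. Without S12 it was 4 of 17 tested. In the interaction 9 of the 16 were called higher, Ptprc, Adgre1, C1qb, C1qc, Itgam, Itgax, Lyz2, Laptm5 and Mpeg1, against 0.427% of all tested genes. It was 1 of 16 without S21 and 11 of 17 without S12. No adjusted p in these comparisons was below 0.05 over all 24 libraries.

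C1qa, the most abundant gene of the list at 84.3 ± 26.2 CPM in Ctr BSA and 81.2 ± 16.3 CPM in Ctr PA (SD, n = 6 each), did not follow the called genes. Library S12 held 1947 C1qa counts next to 1 of Lyz2 and 0 of Ptprc and Adgre1. Whether the C1qa counts are macrophage RNA was not tested, and the unknown strand setting of the counting applies to this gene as well. The summed macrophage level was therefore also taken without C1qa. Cd68, Cd14 and Fcer1g, which were not called either, stayed in that sum. Cd68 averaged 11.6 ± 4.75 CPM in Ctr BSA and 10.3 ± 2.28 CPM in Ctr PA (SD, n = 6 each). In S12 it had 257 counts, 9.22 of the 14.99 CPM of the sum. Values relative to the sum, and correlations with it, therefore depend on Cd68 as well. Over the remaining 17 genes the sum ran from 39.98 to 335 CPM in Ctr BSA (median 68.4), the highest being S21, and from 21.1 to 32.2 CPM in Ctr PA (median 24.2). Under αGlu it ran from 23.5 to 97.4 CPM with BSA (median 54.4) and from 14.99 to 76.2 CPM with PA (median 29.9), the lowest being S12 and the highest S8. All 6 Ctr PA libraries were below all 6 Ctr BSA libraries. With C1qa the medians were 162, 100.04, 143 and 134 CPM in the same order.

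Relative to that sum, Ctss had medians of 8.25% and 6.04% in the Ctr groups without and with PA and of 7.17% and 8.66% in the αGlu groups, and the ranges of all 4 groups overlapped. Cd74 had medians of 3.57% and 6.32% under Ctr and of 3.89% and 5.91% under αGlu, again with overlapping ranges. H2-DMa was 17.9% of the sum in Ctr BSA and 38.8% in Ctr PA. H2-DMb1 was 0.464% and 0.14%. S12 had 2 counts of Ctss, 318 of H2-DMa and 37 of Cd74, and its Cd74 level of 1.33 CPM was inside the range of its group. The part of macrophage content in the differences of the class II genes was not tested beyond these values.

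**Figure D3:**
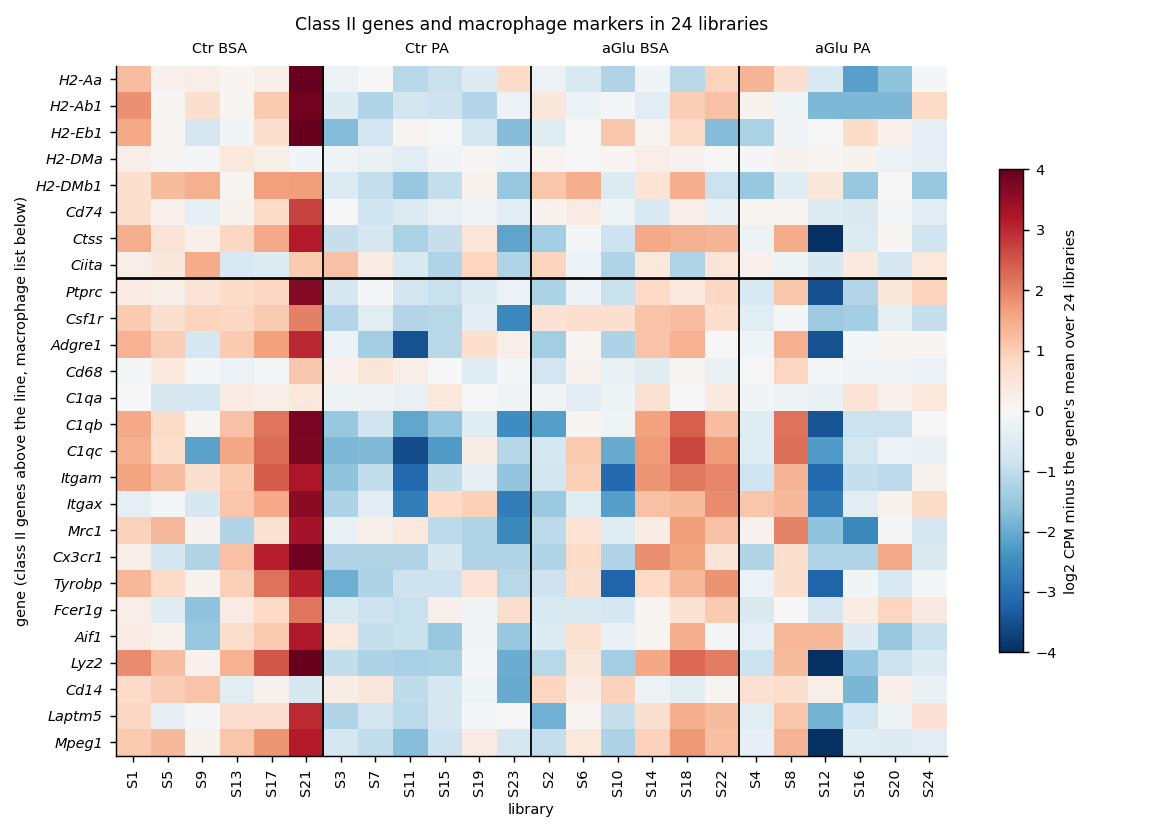
Log2 CPM of the 8 class II genes (above the line) and the 18 macrophage genes (below it) in the 24 libraries, each minus the gene's mean over all libraries, ordered by group and library number. S21 is red for most macrophage genes and for H2-Aa, H2-Ab1, H2-Eb1, Cd74 and Ctss, S12 is dark blue for Ctss, Lyz2 and Mpeg1, and H2-DMa and C1qa stay near 0 throughout.

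Correlations over libraries are given as a description, since the libraries share groups and batches and both quantities of a pair come from the same library. Log2 CPM of Ctss had a Pearson r of 0.90 with the log2 macrophage sum without C1qa over 24 libraries and 0.89 without S21. The same r was 0.78 and 0.59 for Cd74, 0.68 and 0.39 for H2-Aa, 0.58 and 0.53 for H2-DMb1, and 0.36 and 0.57 for H2-DMa. Among the class II genes, H2-Aa and Cd74 had r = 0.74 over 24 libraries and 0.30 without S21.

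**Figure D4:**
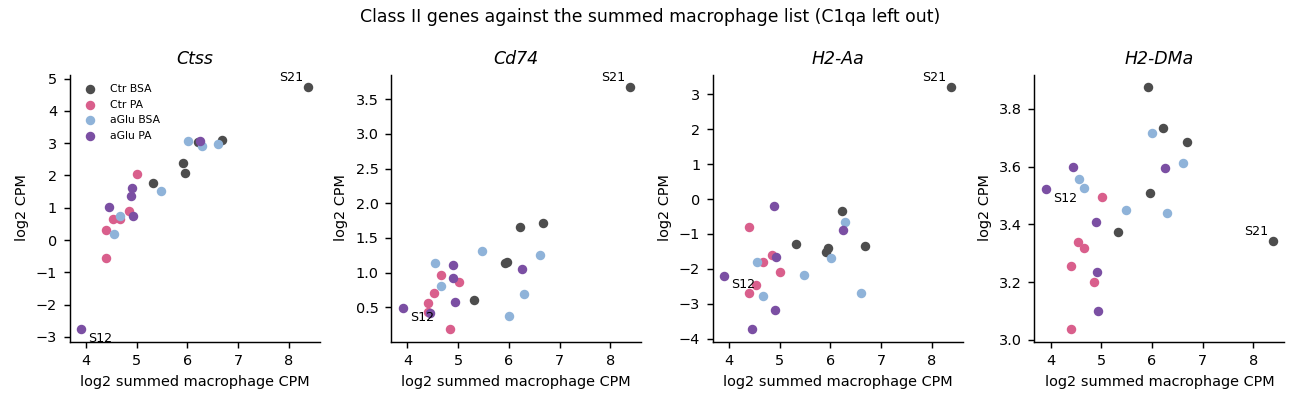
Log2 CPM of Ctss, Cd74, H2-Aa and H2-DMa (vertical axes, scales differ) against the log2 of the summed CPM of 17 macrophage genes (horizontal axes), with 1 point per library coloured by group. Ctss runs along the sum from S12 to S21, Cd74 and H2-Aa are high in S21, and S21 is inside the range of the other libraries for H2-DMa.

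Outside the class II list, the genes with the highest Pearson r to Ctss were Lyz2 (0.97), Mpeg1 (0.95), C1qb (0.94), Lilr4b (0.93) and Cd84 (0.91), all known from myeloid cells, and these 5 were also the highest without S21. Those with the highest r to Cd74 were C3 (0.79), Csf2rb (0.76), Mmp9 (0.74), Plek (0.74) and Wdfy4 (0.74). Without S21 they were Cxcl14 (0.81), Thbd (0.81), Kctd17 (0.78), Lyrm1 (0.77) and Ecm1 (0.75), with none shared. For H2-Aa they were Rac2 (0.75), Plek (0.72), Lcp1 (0.71), Tcf7 (0.70) and Tmem158 (0.69), and without S21 Minar1 (0.72), Zfp988 (0.68), Flot2 (0.68), Tceanc2 (0.68) and Avpr1b (0.67), again with none shared.

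Genes listed for other antigen-presenting cells were present to unequal degrees, with 1797 counts of Zbtb46 and 1252 of Cd79a in all 24 libraries. Which cells these counts came from was not tested. Of 9 dendritic cell genes 3 were tested, and Itgae, an integrin chain of a dendritic cell subset and of intraepithelial lymphocytes, was called lower with PA under both ASOs (−1.28 ± 0.32 and −1.17 ± 0.31). Flt3, which defines the dendritic lineage, had 33 counts in all 24 libraries, Xcr1 and Cd209a none. The summed dendritic level ran from 3.20 to 8.69 CPM in Ctr BSA and from 1.40 to 6.71 CPM in Ctr PA, with S21 at 5.20 CPM, inside the range of its group. Zbtb46 was the highest of the list, at 3.03 ± 2.02 CPM in Ctr BSA.

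Of 8 B cell genes 3 were tested. Cd79a, a signalling chain of the B cell receptor and the highest of the list, was called lower with PA under the control ASO (2.78 ± 0.686 CPM in Ctr BSA and 1.20 ± 0.461 in Ctr PA, −1.25 ± 0.21, adjusted p = 9.69e-05), and Cd79b under αGlu (−1.01 ± 0.31). The defining gene Ms4a1 had 23 counts in all libraries, and Ighm none. The summed B cell level was 4.87 to 8.20 CPM in Ctr BSA, highest in S21, and 2.04 to 4.68 CPM in Ctr PA. Of 8 T cell genes Lck alone was tested, with no call, and Cd3e had 6 counts in all libraries. Cd4, which some macrophages also express, had 115 of its 207 counts in S21.

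The factors that act on class II promoters were all expressed and moved little. None of Rfx5, Rfxap, Rfxank, Nfya, Nfyb, Nfyc and Creb1 was called with PA under either ASO. By adjusted p, Rfxank (−0.30 ± 0.08, adjusted p = 0.00554) and Creb1 (−0.22 ± 0.08, adjusted p = 0.0487) were lower under the control ASO, and Nfyb (−0.26 ± 0.08, adjusted p = 0.0138) and Creb1 (−0.28 ± 0.08, adjusted p = 0.0123) under αGlu. Creb1 was the highest of the list, at 81.1 ± 11.5 CPM in Ctr BSA. Rfx5, the RFX subunit that binds the X box, stood at 42.8 ± 3.27 CPM in Ctr BSA and 46.5 ± 3.26 CPM in Ctr PA (adjusted p = 0.103).

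Of the interferon γ pathway, the known inducer of Ciita, 6 of 7 genes were tested and none was called with PA. Irf1, an interferon-induced transcription factor, was lower by adjusted p under both ASOs, at −0.39 ± 0.08 (adjusted p = 0.000388) and −0.31 ± 0.07 (adjusted p = 0.00323). Ifng itself had no count, and the kinase gene Jak1 was the highest of the list.

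Endosomal processing genes were not called either. Of 8 genes, Ifi30, a thiol reductase that opens disulfide bonds of antigens, was higher with PA by adjusted p under both ASOs, at 0.49 ± 0.08 (adjusted p = 0.000102) and 0.54 ± 0.08 (adjusted p = 3.47e-05). Cathepsin H, encoded by Ctsh, was lower, at −0.84 ± 0.20 (adjusted p = 0.00293) and −0.63 ± 0.20 (adjusted p = 0.0218). Sppl2a, whose protease cleaves the membrane remnant of the invariant chain, was higher under the control ASO (0.28 ± 0.10, adjusted p = 0.0298), and Ctsd, the highest of the list, under αGlu (0.26 ± 0.09, adjusted p = 0.0338).

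The remaining class II chains were almost absent. H2-Ea had 1 count and H2-Eb2 had 2 counts in all 24 libraries, H2-Oa 12, H2-Ob 20 and H2-DMb2 27. S21 alone held 9 of the H2-Oa and 7 of the H2-Ob counts. Of the 2 ubiquitin ligases that turn over class II at the surface, Marchf8 was higher with PA by adjusted p under both ASOs (0.16 ± 0.04 and 0.17 ± 0.04), and Marchf1 was not called (−1.04 ± 0.66, adjusted p = 0.246, under the control ASO). Among the costimulatory genes Cd80 and Cd86 were below the filter, with 120 and 149 counts, and Cd40 had a log2 fold change of 0.60 ± 0.24 (adjusted p = 0.0615) under the control ASO.

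Among markers of other cells, those of fibroblasts were lower with PA as well. Most tested genes of the endothelial and ductal lists were not called. Under the control ASO, all 8 endothelial, 5 ductal and 5 acinar genes tested nevertheless had negative fold changes. Their median log2 fold changes were −0.84, −0.75 and −1.03 in that order, against 0.0074 over all tested genes. By adjusted p, 0, 3 and 3 of them were lower, against 14.5% of all tested genes. Under αGlu, 7, 5 and 5 of them had negative fold changes. Of all tested genes, 5.06% were called lower under the control ASO and 4.74% under αGlu. In the control ASO groups all 6 tested fibroblast genes were called lower (Col1a1, the highest, Col1a2, Col3a1, Pdgfra, Pdgfrb and Dcn; median −2.87), as were 1 of 8 endothelial genes (Emcn), 3 of 5 acinar genes (Cpa1, Cela1 and Pnlip) and 1 of 5 ductal genes (Sox9), and none of the 8 β-cell genes. Under αGlu the counts were 3 of 6 fibroblast (Col1a1, Col1a2 and Pdgfrb), 2 of 8 endothelial (Emcn and Flt1), 2 of 5 acinar (Cela1 and Pnlip) and 1 of 5 ductal genes (Sox9), and again none of the β-cell genes. The part of the cell mix in the class II values was not tested.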

How the data were processed

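RNA of 24 wild type islet cell libraries was made into stranded mRNA libraries and sequenced by the authors on an AVITI instrument, and their methods name the QIAGEN RNA-seq Analysis Portal 5.1. The submitters' processing notes give the build GRCm38. The deposited table holds raw read counts per gene and, beside them, RPKM values computed by the authors. No source used here gives the aligner or the strand setting. One line without a gene name was left out.

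Counts were scaled by TMM and tested with edgeR 4.0.16 (R 4.3.3), quasi-likelihood, group plus batch, over 15916 genes kept by filterByExpr, which hold 99.954% of all counts. DESeq2 1.42.0, other scalings and filters, single batches and leaving out each library were alternatives. SE is the log2 fold change over the root of F. Single levels were compared by exact permutation of log2 CPM (prior count 2). The procedure was tested on simulated counts. RPKM values were used for the order of genes within a group, without a test.

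All 8 genes are named. From the other lists, each called gene and the highest expressed one are named, and for likeness to Cd74, H2-Aa and Ctss the 5 genes of highest Pearson r. Genes past the adjusted p only, those used to show which cells are present, and the macrophage genes that were not called were named after their values were seen. The 8 genes, the lists and the tests were chosen with earlier results of these data known.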

Additional observations from a re-analysis of the deposited data

Results flagged for a closer look

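In 8 of 32 sets of 6 libraries (8 genes in 4 groups), 1 library lay farther from the others than Dixon's 95% criterion allows. For independent normal values about 1 in 20, or 1.6 sets, would be flagged. The sets share libraries and hold CPM values of genes with low counts, so the 8 sets are not tested against that number. S21 of Ctr BSA accounted for 5 of them, with H2-Aa at 9.23 CPM, H2-Ab1 at 3.71, H2-Eb1 at 5.80, Cd74 at 12.8 and Ctss at 26.8. S22 of αGlu BSA stood out for H2-Aa (0.553 CPM), S19 of Ctr PA for Ctss (4.05 CPM) and S8 of αGlu PA for Ctss (8.22 CPM). H2-DMa, H2-DMb1 and Ciita had no library of this kind in any group.

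The PA responses under the 2 ASOs differed by the interaction term for H2-Aa (3.50), Cd74 (1.24) and Ctss (1.87) on the log2 scale, by p before adjustment. The adjusted p of edgeR's quasi-likelihood test was 0.999 for each, and none was called without S21.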

How the results depend on the processing

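No paired analysis was possible because the library numbers S1 to S24 are not shared between groups and the labels do not say which libraries share an animal. Of the single-gene results in the 4 comparisons of groups and the interaction, 652 kept direction and side of the threshold when 1 library was left out, 36 were no longer past it, 2 came past it and 5 reversed. Under the other alternatives the counts were 237, 29, 4 and 10. The fit with no filter and without S21, the macrophage sum without C1qa and the likeness without S21 were chosen after seeing the data.

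With no filter, the genes called numbered 1713 instead of 941 for PA under Ctr, 1466 instead of 886 for PA under αGlu, 587 instead of 125 for αGlu with BSA, 576 instead of 150 for αGlu with PA, 668 instead of 104 for the interaction, 1878 instead of 915 and 609 instead of 117 for the averaged PA and αGlu effects, and 1865 instead of 1015 between batches. With S21 left out as well they numbered 1510, 1453, 444, 569, 556, 1743, 564 and 1736 in the same order. For αGlu with PA, the 2 groups alone gave 92, batch 1 gave 89 and batch 2 gave 255, and batch 2 gave 164 for the interaction.

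Among the class II genes, PA under Ctr called 4 (941). Numbers in brackets are all genes called in that setting, in either direction. The 2 groups alone (756) and a stricter filter (772), which tested 3 of them, called 2, and batch 1 (935) called 1. PA under αGlu called 1 (886), and 0 with the 2 groups alone (754) or the stricter filter (743). For αGlu with BSA, 2 (125) became 1 with the 2 groups alone (96) or the stricter filter (91), and 0 in batch 1 (152). The count was 0 by adjusted p (0), 4 with no filter (587) and 0 with no filter and no S21 (444). For the interaction, 3 (104) became 1 in batch 2 (164), 0 by adjusted p (0), 5 with no filter (668) and 0 without S21 as well (556). For averaged PA, 2 (915) became 1 in batch 1 (925) or with the stricter filter (738), and 5 in batch 2 (1022). The count was 4 with no filter (1878) or by adjusted p (7221 of 15916). Averaged αGlu went from 0 (117) to 1 in batch 2 (172), with DESeq2's Wald test (114) and with no batch term (107). Leaving out 1 library gave 2 to 5, 1 to 2, 0 to 4 and 0 to 4 calls for these first 4 comparisons, 2 to 4 and 0 to 1 for the averaged effects, and 0 to 1 between batches.

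Reversals concerned values that were not called. Under αGlu, the PA effect on H2-Aa was −1.63 in batch 2 and −0.0068 as a difference of mean log2 CPM, that on Ctss was 0.96 in batch 1, and that on Ciita was 0.062 as a difference of means. For αGlu with PA, batch 2 gave −1.47 for H2-Aa, −0.040 for H2-DMa, −0.31 for H2-DMb1 and −0.061 for Cd74, and the difference of means was −0.070 for H2-Aa and 0.027 for Ciita. Leaving out 1 library gave −0.17 to 1.02 for H2-Aa with PA under αGlu. For αGlu with PA it gave −0.26 to 0.94 for H2-Aa, −0.18 to 1.21 for H2-DMb1 and −0.085 to 1.12 for Ctss, and for αGlu with BSA −0.10 to 0.019 for H2-DMa. Sign changes also occurred outside that tally, from −0.36 to 0.33 for H2-DMb1 and −0.57 to 0.18 for Ctss in the averaged αGlu effect, and from −0.31 to 1.04 for H2-Aa, −0.05 to 0.35 for Cd74 and −0.29 to 0.11 for H2-DMb1 between batches. Their causes were not tested. Of the 24 libraries, 23 held under 10 counts for Ciita, 21 for H2-Eb1, 19 for H2-Ab1 and 17 each for H2-Aa and H2-DMb1.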
